A study of Mus musculus with 6 samples.

Results

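The interferon system was examined across sham and MI libraries of mouse heart cells through 40 genes named by symbol: 4 receptor chains, 7 transcription factors, 14 genes of the Oas and Ifit type, 3 sensors of foreign or misplaced nucleic acid, 4 guanylate-binding proteins and 8 other effectors. They were found in the gene table by their symbols. Of the 40, 39 are among the 17714 genes of the table and all 39 passed the filter on low counts, so that each was among the 13370 genes tested. Mx2 is not listed in the table and was not analysed here. The study addressed heart lymphatics after myocardial infarction. Its 6 libraries are 3 labelled sham and 3 labelled MI, read here as myocardial infarction from the title, all wild type (WT) and all at day 3, and the cell type given for each is lymphatic endothelial cells. The labels speak of culture in DMEM with serum and of heart tissue or primary endothelial cells as the source, without saying which of these gave the libraries. They name no sort, and no age, sex or strain. They do not say that libraries of a group came from separate animals, so p-values measure the spread between these libraries, which may be technical.

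Interferons are secreted proteins that warn cells of infection or damage. Type I interferons such as interferon beta bind Ifnar1 with Ifnar2, and interferon gamma binds Ifngr1 with Ifngr2. The receptors activate Janus kinases, and these activate STAT proteins. Complexes that hold Stat2 and Irf9 bind an interferon-stimulated response element, whereas the interferon gamma pathway acts mainly through a gamma-activated site. In the heart after infarction, type I signalling is best known in macrophages that have taken up DNA of dying cells.

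Promoter letters are shown first because the same element stood before genes that rose and before genes that fell. RefSeq promoter windows (GRCm38.p6, 300 bases each, from 250 before to 50 after a start) were matched for 34 of the 40 members, with 39 windows. The core of the interferon-stimulated response element was searched as GAAA, then any 2 bases, then GAAA again (the paired GAAA motif), and the gamma-activated site as TTCNNNGAA, both on either strand. The next 8 lines give the first match to the paired GAAA motif before the start, in capitals, with up to 15 bases on each side, for the 4 members with the largest rise and the 4 with the largest fall among those called with such a match; this choice was made after the values were seen. All are written 5′ to 3′ on the gene's strand, so that a match on the other strand reads TTTC, any 2 bases, TTTC. The first 4 genes rose in MI and the last 4 fell.
Oas3: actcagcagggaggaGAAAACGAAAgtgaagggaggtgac
Oas1a: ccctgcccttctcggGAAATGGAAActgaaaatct
Rsad2: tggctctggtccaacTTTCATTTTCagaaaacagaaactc
Isg15: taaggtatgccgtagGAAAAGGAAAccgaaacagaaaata
Gbp7: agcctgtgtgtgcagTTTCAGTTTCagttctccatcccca
Gbp2: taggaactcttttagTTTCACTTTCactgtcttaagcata
Gbp5: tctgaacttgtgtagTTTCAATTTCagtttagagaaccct
Gbp3: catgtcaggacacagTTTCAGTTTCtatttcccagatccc

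These stretches lie at chr5:120777710-120777749, minus strand for Oas3, chr5:120907526-120907560, minus strand for Oas1a, chr12:26456548-26456587, minus strand for Rsad2 and chr4:156200872-156200911, minus strand for Isg15. Those of the guanylate-binding protein genes lie at chr3:142530268-142530307, plus strand for Gbp7, chr3:142620589-142620628, plus strand for Gbp2, chr3:142496754-142496793, plus strand for Gbp5 and chr3:142559984-142560023, plus strand for Gbp3. The match began 75 bases before the window's start site in Oas3, 20 in Oas1a, 120 in Rsad2 and 78 in Isg15. It began 53 bases before the start in Gbp7, 59 in Gbp2, 165 in Gbp5 and 45 in Gbp3. The paired GAAA motif was in the windows of 17 of 34 members (50%) and of 3.99% of 27025 genes with a window. It was in 9 of 18 members called higher in MI, in 6 of 12 called lower and in 2 of 4 not called, which is 50% in each. Usp18, Dhx58, Zbp1 and Parp14, all called higher, and Oas2, not called, had no window. They are outside these counts, so the shares do not cover all called members. By role the paired GAAA motif was in 4 of 4 guanylate-binding protein genes, 6 of 11 of the Oas and Ifit type and 0 of 4 receptor genes. TTCNNNGAA was in 12 of 34 members (35.3%) and in 9.55% of all genes, in 6 of 18 called higher, in 3 of 12 called lower and in 3 of 4 not called. By role it was in 3 of 5 of Irf1 with the guanylate-binding protein genes, 2 of 11 of the Oas and Ifit type and 2 of 4 receptor genes. These counts are small and were not tested. Matches of both kinds overlapped in 2 windows, those of Bst2 and Ifitm3. A match is a description of letters and not a bound site.

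The 150 bases before the gene's outermost annotated start are shown for the 2 members with the largest rise and the 2 with the largest fall. In each of these pairs, 1 gene has a match to 1 of the motifs in the stretch shown and 1 has none. Capitals mark a match to either motif; the Oas3 window holds the paired GAAA motif, the window of Irf1 shown holds TTCNNNGAA, and neither motif is in the windows of Oasl1 and Ifi44. A further window of Irf1, from a later start, holds neither. With 1 mismatch allowed, the paired GAAA motif was in the windows of both Oasl1 and Ifi44. At that setting it was in 25 of 34 members and in 38.9% of all genes with a window.
Oas3: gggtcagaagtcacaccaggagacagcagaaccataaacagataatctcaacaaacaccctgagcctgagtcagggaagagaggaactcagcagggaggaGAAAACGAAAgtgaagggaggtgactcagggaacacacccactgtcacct
Oasl1: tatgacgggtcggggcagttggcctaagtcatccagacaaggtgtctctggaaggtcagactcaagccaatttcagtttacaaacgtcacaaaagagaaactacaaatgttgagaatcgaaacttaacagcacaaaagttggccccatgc
Irf1: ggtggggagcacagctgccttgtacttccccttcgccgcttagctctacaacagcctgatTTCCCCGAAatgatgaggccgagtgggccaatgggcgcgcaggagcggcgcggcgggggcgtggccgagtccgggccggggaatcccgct
Ifi44: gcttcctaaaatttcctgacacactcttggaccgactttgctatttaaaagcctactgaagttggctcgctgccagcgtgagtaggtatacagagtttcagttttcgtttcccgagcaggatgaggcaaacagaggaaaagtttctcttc

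They lie at chr5:120777685-120777834, minus strand for Oas3, chr5:114922993-114923142, plus strand for Oasl1, chr11:53769864-53770013, plus strand for Irf1 and chr3:151749911-151750060, minus strand for Ifi44. Oas3 and Oasl1 had the largest rises of the 39 members, and Irf1 and Ifi44 the largest falls.

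In MI, the sensors and most genes of the Oas and Ifit type were higher, Irf1 and the guanylate-binding protein genes were lower, and the receptor chains moved by less than 2-fold. Of the 39 tested members, 22 were called higher in MI and 12 lower, and 5 were not called (edgeR's quasi-likelihood test, Benjamini-Hochberg adjusted p under 0.05 over all genes tested). Of all genes tested, 73.3% were called, 36.4% higher and 36.9% lower, so that a call by itself was the usual outcome here. The median log2 fold change was 0.68 over the members and -0.01 over all genes tested. In 36 of 39 members the 3 sham and 3 MI libraries did not overlap in CPM (counts scaled to a common library size, corrected by TMM), as in 76.1% of all genes tested. A called rise of at least 2-fold was found in 12 members and a called fall of that size in 1, Irf1. Among all genes tested, 20.2% had such a rise and 21.2% such a fall.

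Total counts were between 3206732 and 3591473 in sham and between 21154342 and 21689333 in MI. Within MI, replicate 1 stood apart from the others, with a chi-square per gene of 35.3 and 21.3 against replicates 2 and 3, which differed from each other by 4.14. The sham pairs had 1.54 (replicates 1 and 2), 1.77 (1 and 3) and 1.63 (2 and 3). This measure grows with the number of counts, so sham and MI pairs cannot be set side by side. Without MI replicate 1, 24 members were called higher and 13 lower. With libraries scaled to their total counts, the median of all genes moved from -0.01 to -0.36, 26.6% of all genes were called higher and 49.6% lower, and of the members 19 were higher and 16 lower.

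Markers of several cell types also differed between the groups. Macrophage and monocyte markers were higher in 21 of 22, with a summed level of 5850 to 6133 CPM in sham and 31248 to 34125 CPM in MI and a median log2 fold change of 2.32; Cd163 was the one that fell. Neutrophil markers were higher in 8 of 9 tested, with 11 markers summing to 46.4 to 56.4 CPM in sham against 748 to 924 CPM in MI, and Ngp was at 0 in sham. Pan-endothelial markers were lower in 18 of 19, with 10783 to 11043 CPM in sham, 2617 to 2717 CPM in MI and a median of -2.05. Lymphatic endothelial markers were lower in 10 of 14 and higher in 4, with a summed level of 893 to 914 CPM in sham and 703 to 773 CPM in MI. Cardiomyocyte markers were lower in 11 of 12, with 2899.9 to 2956 CPM in sham, 142 to 166 CPM in MI and a median of -3.84. Red cell markers were lower in 5 of 5 tested, with 1733 to 1797 CPM in sham, 61.3 to 88.2 CPM in MI and a median of -4.49, and Slc4a1 was at 0 in sham. These 2 lists had the lowest medians of all marker lists. Mural cell markers were lower in 9 of 9, with 3168 to 3189.5 CPM in sham, 862 to 875 CPM in MI and a median of -1.48. Fibroblast markers were higher in 4 of 10 and lower in 6 (median -1.16), and B cell markers higher in 2 of 5 tested and lower in 2 (median -0.34). Prox1, the factor that defines lymphatic identity, stood at 6.68, 6.93 and 7.73 CPM in sham and 1.75, 0.847 and 1.19 CPM in MI. These Prox1 levels are near 0 in MI beside the level of Pecam1, a marker of all endothelium, at 1581, 1608 and 1619 CPM in sham and 379, 389.9 and 388 CPM in MI. Since sham libraries had fewer counts in total, a marker is more easily at 0 in sham than in MI. In such bulk libraries, fewer cells of a type and less RNA per cell cannot be told apart. The part of the marker changes in the members' results was not tested. Of the 39 members, 6 had a log2 fold change above the macrophage median (Irf5, Oas1a, Oas3, Oasl1, Dhx58 and Zbp1), 0 had one below the pan-endothelial median, and 33 lay between.

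**Figure D1:**
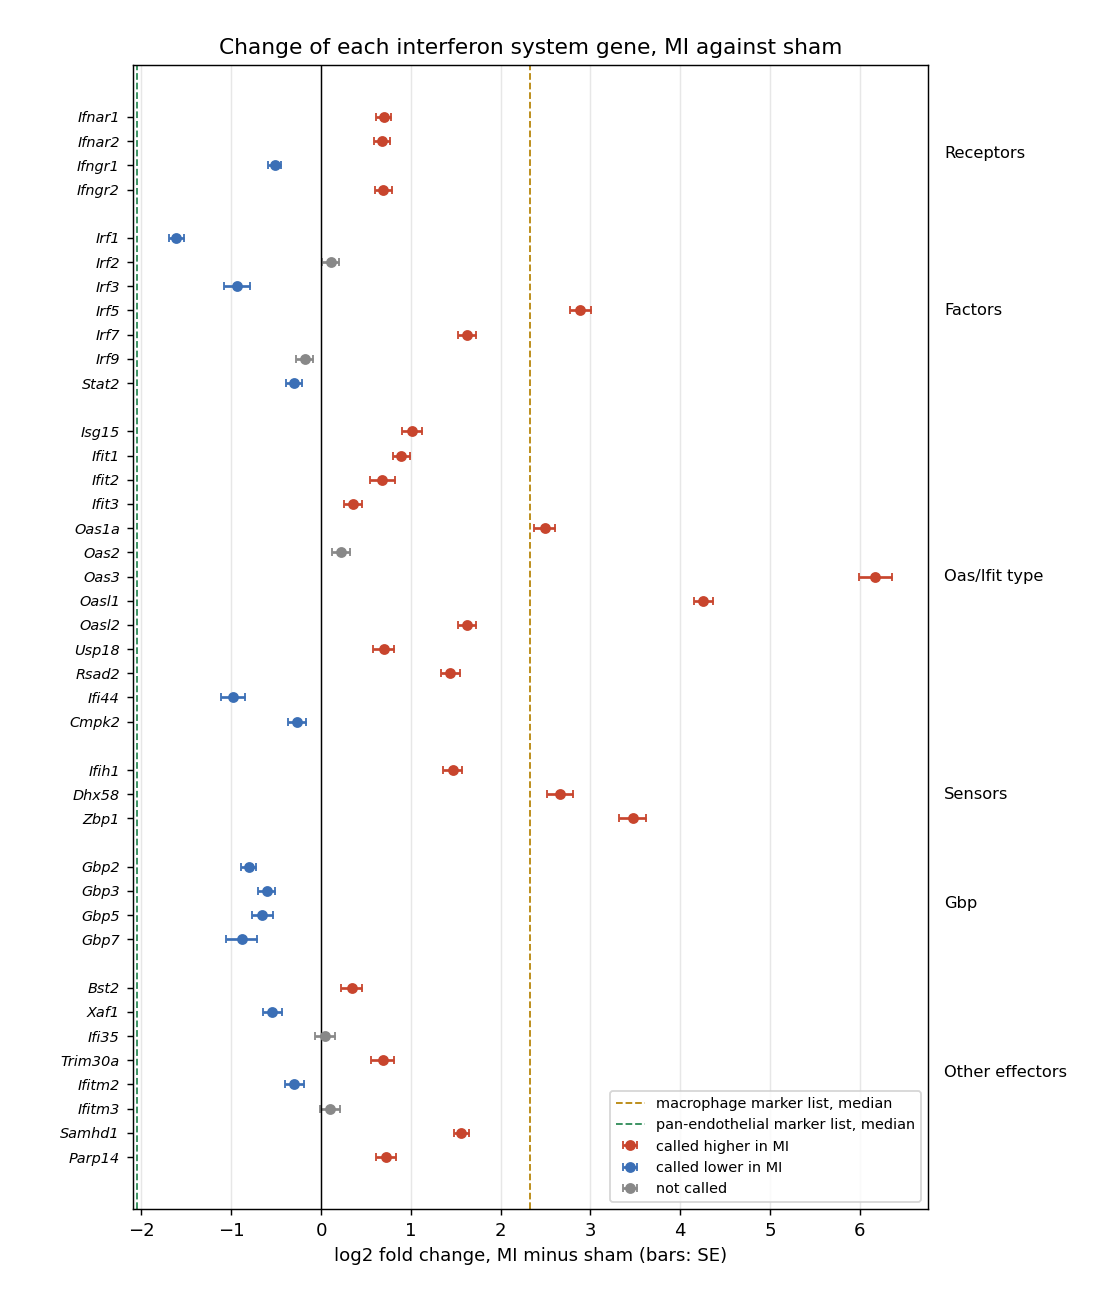
Log2 fold change (MI minus sham, x axis) of the 39 tested members by role, with bars for the standard error, colours for the edgeR call, and dashed lines for the medians of the macrophage and pan-endothelial marker lists (2.32 and -2.05). The 3 sensors and the 10 Oas and Ifit type genes called higher lie to the right of 0, and Irf1, the 4 Gbp genes, Ifi44 and Cmpk2 to the left; Oas2, Irf2, Bst2, Ifi35 and Ifitm3 change sides when libraries are scaled to total counts.

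Of the ligands, interferon beta was the one with enough counts to test, and it was higher in MI. Ifnb1, which encodes interferon beta, had 6.43, 8.47 and 9.93 CPM in sham and 27.2, 35.7 and 35.3 CPM in MI. All MI libraries lay above all sham libraries, and the log2 fold change was 1.99 (SE 0.18), adjusted p = 1.05e-06 (edgeR). Of 21 ligand genes, 10 are in the table, and the other 9 of these were at or near 0 counts. Ifng, encoding interferon gamma, had 0 counts in all sham libraries together and 5 in all MI libraries, which is not a detectable difference at this depth. Ifnk, for interferon kappa, had 1 count in sham and 15 in MI. Sham libraries had fewer counts in total than MI libraries, so low counts and counts of 0 come more easily in sham. Each of Ifna2, Ifna4, Ifna5, Ifna6, Ifna16, Ifnab and Ifnl2 had 0 or 1 count in sham and between 1 and 4 in MI. Markers of T and natural killer cells, the usual sources of interferon gamma, were higher in 1 of 4 tested and summed to 4.36 to 8.90 CPM in sham and 13.9 to 17 CPM in MI, and Cd3g, Ncr1 and Nkg7 were at 0 in sham and Cd3e at 0 in MI. Dendritic cell markers, Bst2 among them, were higher in 6 of 10 and lower in 4, with a median log2 fold change of 1.54 and a summed level of 625 to 650.1 CPM in sham against 518 to 545 CPM in MI; Ccr9 was at 0 in sham. Within this list Siglech, a marker of the plasmacytoid dendritic cells that make much interferon alpha, had 4.45, 2.57 and 3.86 CPM in sham and 1.32, 1.32 and 1.35 CPM in MI.

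Among the receptors, 3 chains rose together by about the same amount and the binding chain for interferon gamma fell. Ifnar1, a chain of the type I receptor, had 122, 113 and 118 CPM in sham and 197, 178 and 196 CPM in MI. Ifnar2, the other chain, had 117, 114 and 107 CPM in sham and 166, 189 and 185 CPM in MI. For both genes every MI library lay above every sham library. Log2 fold changes were 0.70 (SE 0.08) for Ifnar1 with adjusted p = 1.07e-05 and 0.68 (SE 0.09) for Ifnar2 with adjusted p = 2.08e-05 (edgeR). Ifngr1, which binds interferon gamma, had 228, 232 and 241 CPM in sham and 163, 161 and 166 CPM in MI. Ifngr2, which is needed for that receptor to signal, had 43, 49.3 and 46.6 CPM in sham and 74.5, 74.4 and 75.4 CPM in MI. The groups did not overlap in either gene, with Ifngr1 low and Ifngr2 high in MI. Ifngr1 fell by 0.52 on the log2 scale (SE 0.07), adjusted p = 5.61e-05, and Ifngr2 rose by 0.69 (SE 0.09), adjusted p = 3.54e-05. In TPM, the deposited level per transcript length, Ifngr2 was 0.189 to 0.213 times as high as Ifngr1 in sham and 0.456 to 0.465 times in MI. The ratio of Ifnar2 to Ifnar1 was 3.65 to 4.17 in sham and 3.46 to 4.54 in MI, and these ranges overlapped. The 3 chains that rose lie within 191 kb of chromosome 16 (91372783 to 91564007 in GRCm38), whereas Ifngr1 is on chromosome 10 (19591949 to 19610229).

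The shared signalling genes below the receptors were mostly higher in MI. Of 15 kinase, STAT and feedback genes, 10 were called higher and 1 lower, with a median of 0.68; 2 were lower without sham replicate 3 and 4 when scaled to total counts. Jak2, a kinase of the interferon gamma receptor, had 95.9, 98.3 and 102 CPM in sham and 435, 321 and 342 CPM in MI. Its MI libraries were all above sham, and its log2 fold change was 1.89 (SE 0.12). Rises of the other kinases were 0.56 for Jak1 and 0.78 for Tyk2. Of the feedback inhibitors, Socs1 rose by 0.82, Socs3 by 0.89 and the phosphatase gene Ptpn6, which is typical of blood cells, by 2.85. Pias3, an inhibitor of STAT3, fell by 0.86 on the log2 scale.

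**Figure D2:**
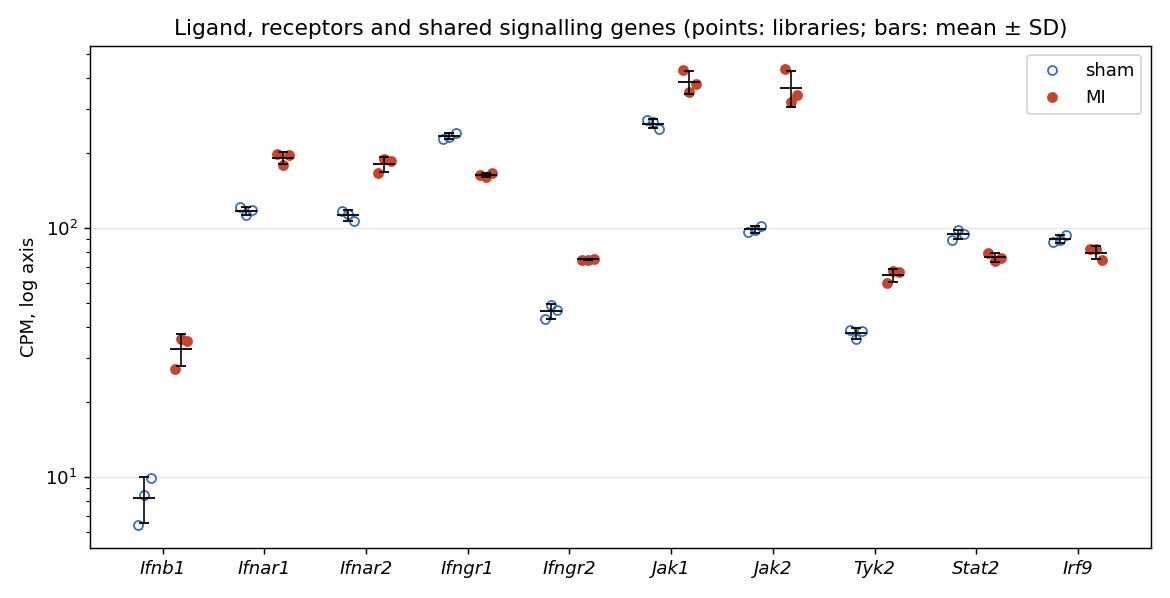
CPM of the ligand gene Ifnb1, the 4 receptor chains, the kinases and the genes for Stat2 and Irf9 (log axis), with 1 point per library and bars for mean ± SD (n = 3 each). Sham and MI do not overlap in any of the 10 genes; Ifngr1, Stat2 and Irf9 are the ones with lower MI means, of which Irf9 was not called.

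The transcription factors divided, with Irf5 and Irf7 up and Irf1 and Irf3 down. Irf7, which amplifies interferon production and is itself interferon-induced, had 117, 121 and 115 CPM in sham and 309, 397 and 379 CPM in MI. Irf5, a factor of myeloid cells that drives inflammatory cytokine genes, had 19.8, 24.1 and 18.5 CPM in sham and 143, 164 and 155 CPM in MI. In both genes all MI libraries were far above sham, with log2 fold changes of 1.62 (SE 0.10) for Irf7 and 2.89 (SE 0.12) for Irf5 (adjusted p = 3.29e-08 and 7.99e-10). Irf1, the factor most closely tied to interferon gamma, had 459, 476 and 449.7 CPM in sham and 137, 161 and 155 CPM in MI. Irf3, which starts Ifnb1 transcription after nucleic acid sensing, had 64, 50.6 and 64 CPM in sham and 25.5, 33.9 and 34 CPM in MI. Both were lower in every MI library than in any sham library. Irf1 fell by 1.61 on the log2 scale (SE 0.08), or 3.06-fold, adjusted p = 6.32e-09, and Irf3 by 0.94 (SE 0.14), adjusted p = 7.62e-05.

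Stat2 and Irf9, which act together in the type I pathway, changed little. Stat2 had 89.8, 98 and 94.9 CPM in sham and 79.6, 73.7 and 75.7 CPM in MI, and fell by 0.30 on the log2 scale (SE 0.09), adjusted p = 0.00781; with MI libraries thinned to the sham depth the adjusted p was 0.0505. Irf9, the DNA-binding subunit, had 87.8, 89.6 and 93.8 CPM in sham and 82.2, 82.4 and 74 CPM in MI, with a log2 fold change of -0.18 (SE 0.09) and adjusted p = 0.0836. Irf9 was thus not called, although its groups did not overlap, and it was called lower with an adjusted p of 0.0253 without MI replicate 1 and of 0.000186 when scaled to total counts. Irf9 was also called lower with the stricter filter (adjusted p = 0.0367) and with limma on log2(TPM + 1) (-0.34, adjusted p = 0.00614). Irf2, an antagonist of Irf1, had 40.1, 40.3 and 40.6 CPM in sham and 43.7, 43 and 43.5 CPM in MI, a log2 fold change of 0.11 (SE 0.10) that was not called and that turned to -0.24 when scaled to total counts. In TPM, Irf7 was 0.283 to 0.294 times as high as Irf1 in sham and 2.53 to 2.72 times as high in MI, so that the order of these factors was exchanged. Irf7 was 1.73 to 2.33 times as high as Irf3 in sham and 10.7 to 11.4 times in MI.

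Among genes of the Oas and Ifit type, 10 of 13 were called higher and 2 lower, with a median log2 fold change of 0.89 and a summed level of 757 to 802 CPM in sham and 2140 to 2175 CPM in MI. The Oas genes encode enzymes that make oligoadenylates, which switch on RNase L. Oas3 had 1.24, 0.770 and 1.93 CPM in sham and 95.1, 94.1 and 94 CPM in MI. The sham values rest on 5, 3 and 7 counts. It was nearly absent from sham and at a like level in all MI libraries, with a log2 fold change of 6.17 (SE 0.19) and adjusted p = 8.24e-11; on the log2(TPM + 1) scale, which holds down folds of low genes, the change was 4.50. Oas1a had 38.3, 34.6 and 42.5 CPM in sham and 189, 239.9 and 219 CPM in MI, and rose by 2.49 (SE 0.12), adjusted p = 2.75e-09. The groups of Oas1a lay far apart, but reads of its close copies in the same cluster could be shared by the counting.

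Oas2, the neighbour of Oas3 in the genome, did not pass the test. It had 64.5, 81.6 and 73.9 CPM in sham and 84.7, 84.2 and 87.3 CPM in MI, with a log2 fold change of 0.22 (SE 0.10) and adjusted p = 0.0666. Its MI libraries lay just above sham, and the call was made without sham replicate 2 (adjusted p = 0.0341) and without MI replicate 1 (0.00597). Oas2 was also called higher with DESeq2 (0.0487), RLE size factors (0.0350) and no filter (0.0357), while scaling to total counts gave -0.13. In TPM, Oas3 was 0.00825 to 0.0220 times as high as Oas2 in sham and 0.875 to 0.902 times in MI. The 3 genes span 177 kb of chromosome 5.

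The Oas-like genes, which lie within 41 kb of each other, both rose. Oasl1, encoding a protein known to restrain translation of Irf7, had 31.9, 29.8 and 32.8 CPM in sham and 535, 642 and 630.4 CPM in MI. Oasl2 had 48.2, 49.5 and 57.4 CPM in sham and 154, 162 and 163 CPM in MI. Both were high in every MI library, with log2 fold changes of 4.26 (SE 0.11) for Oasl1 (adjusted p = 3.24e-11) and 1.63 (SE 0.10) for Oasl2 (adjusted p = 1.75e-08). By TPM, Oasl1 went from place 33 to place 3 among the 39 members. The ratio of Oasl1 to Oasl2 ranged from 0.764 to 0.866 over sham libraries and from 4.34 to 5.27 over MI libraries.

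The Ifit genes, whose products bind foreign RNA, rose less. Ifit1 had 50.7, 48.2 and 46.6 CPM in sham and 97.5, 84.7 and 88.5 CPM in MI, with a log2 fold change of 0.89 (SE 0.10) and adjusted p = 5.10e-06. Ifit2 had 76.7, 79 and 87.5 CPM in sham and 161, 109 and 119 CPM in MI, with 0.68 (SE 0.14) and adjusted p = 0.000877. Ifit3 had 70.2, 81.3 and 66.2 CPM in sham and 91.5, 96.2 and 90.8 CPM in MI, with 0.35 (SE 0.10) and adjusted p = 0.00651. All 3 genes were without overlap, but Ifit2 (adjusted p = 0.0517) and Ifit3 (0.973) were not called when scaled to total counts. Ifit3 was also not called on the log2(TPM + 1) scale (limma, adjusted p = 0.0723), and it has a close copy, Ifit3b, with which reads could be shared. Isg15, the ubiquitin-like modifier, had 83.1, 83.9 and 72.6 CPM in sham and 137, 182 and 165 CPM in MI, and Usp18, the protease that removes it and dampens Ifnar2 signalling, had 27, 33.6 and 28.4 CPM in sham and 45.6, 48.9 and 49.9 CPM in MI. Every MI library was above sham in both, with rises of 1.01 (SE 0.12) for Isg15 and 0.70 (SE 0.11) for Usp18 (adjusted p = 7.67e-06 and 0.000157).

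Neighbours in the genome did not always move alike. Rsad2, encoding the antiviral enzyme viperin, had 146, 149 and 133 CPM in sham and 448, 348 and 364 CPM in MI. Cmpk2, a mitochondrial nucleotide kinase gene within 37.1 kb of it, had 69.2, 81.3 and 81.7 CPM in sham and 69.9, 61.2 and 61.7 CPM in MI. Rsad2 was high in all MI libraries, whereas Cmpk2 overlapped between groups. Rsad2 rose by 1.44 (SE 0.11), adjusted p = 1.33e-07. Cmpk2 fell by 0.27 (SE 0.10), adjusted p = 0.0344, a call that was not made without sham replicate 2 (0.138), sham replicate 3 (0.136), MI replicate 2 (0.0797) or MI replicate 3 (0.119), nor with DESeq2 (0.0960). Ifi44 had 50.2, 49.3 and 55.2 CPM in sham and 31.3, 22.6 and 24.3 CPM in MI, lower in every MI library, with a fall of 0.98 (SE 0.14) and adjusted p = 3.76e-05.

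**Figure D3:**
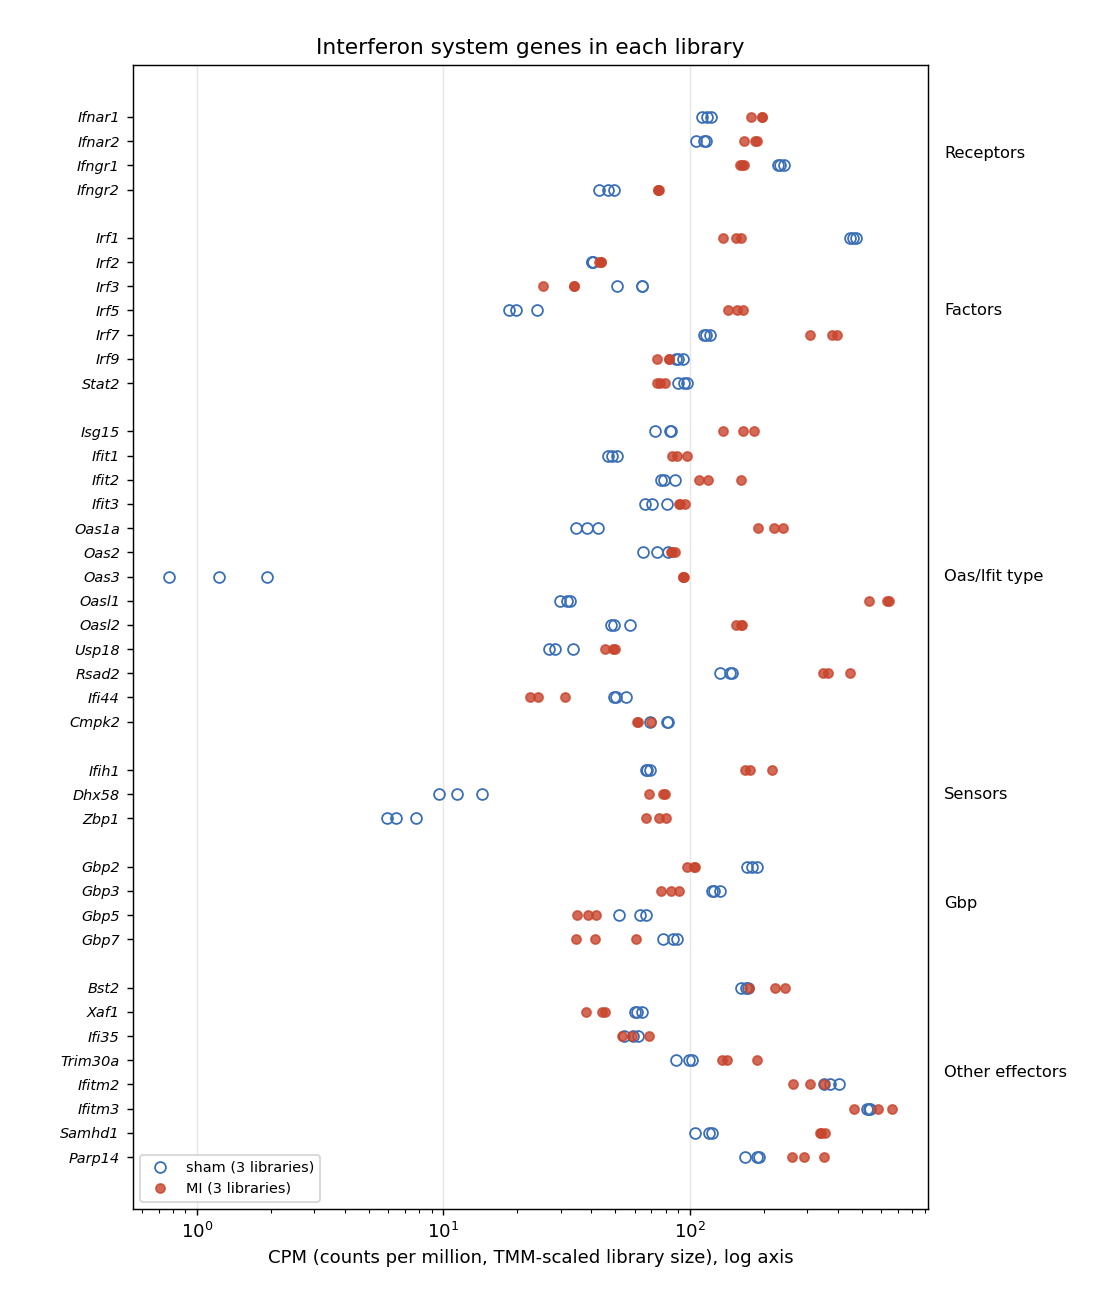
CPM of the 39 listed members in each library (x axis, log scale), grouped by role, with open circles for the 3 sham and filled circles for the 3 MI libraries. Oas3 is near 1 CPM in sham and near 94 in MI, the 4 Gbp genes have their MI circles to the left of sham, and Cmpk2, Ifi35 and Ifitm3 are the members whose groups overlap.

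All 3 sensors were higher in MI, with a median log2 fold change of 2.67. Ifih1, a helicase that senses long double-stranded RNA, had 69, 67 and 66.8 CPM in sham and 215, 168 and 177 CPM in MI. Dhx58, a helicase that tunes such sensing, had 11.4, 14.4 and 9.66 CPM in sham and 68.3, 77.9 and 79.2 CPM in MI. Zbp1, which binds left-handed nucleic acid and can start cell death, had 5.93, 6.42 and 7.73 CPM in sham and 66.6, 74.9 and 80.3 CPM in MI. In none of the 3 did a sham library reach an MI library. Rises were 1.46 (SE 0.11) for Ifih1, 2.67 (SE 0.14) for Dhx58 and 3.47 (SE 0.15) for Zbp1 (adjusted p = 1.39e-07, 8.22e-09 and 1.03e-09). Of 18 tested genes upstream of interferon production, 14 were called higher and 2 lower, with a median of 1.75. Ikbke, a kinase that activates Irf3 and Irf7, rose by 5.0, and Unc93b1, which brings nucleic acid receptors to endosomes, by 2.33. The sham level of Ikbke rests on 8, 8 and 10 counts. Tlr3, an endosomal receptor for double-stranded RNA, fell by 1.20, and Mavs, the adaptor of the RNA helicases, by 0.47.

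The guanylate-binding protein genes and Irf1, classic targets of interferon gamma, went the other way: 5 of 5 were called lower, with a median of -0.81 and a summed level of 900 to 929 CPM in sham and 405 to 436 CPM in MI. Gbp2 had 170.4, 189 and 179 CPM in sham and 106, 97.6 and 104 CPM in MI, and Gbp3 had 126, 124 and 133 CPM in sham and 90.6, 76.6 and 84.3 CPM in MI. Gbp5, which promotes inflammasome assembly, had 66.5, 51.8 and 63.2 CPM in sham and 41.6, 34.9 and 38.8 CPM in MI. Gbp7 had 78.4, 89 and 85.8 CPM in sham and 60.9, 34.8 and 41.4 CPM in MI. In each of these genes the MI libraries were all below sham, and in Gbp7 MI replicate 1 was above the other MI libraries. Falls were 0.81 (SE 0.08) for Gbp2, 0.60 (SE 0.09) for Gbp3, 0.65 (SE 0.12) for Gbp5 and 0.89 (SE 0.18) for Gbp7, with adjusted p between 2.87e-06 and 0.000665. The calls were made under every alternative run. Which interferon, if any, lay behind these levels was not tested. The 4 genes lie within 141 kb of chromosome 3 and are alike in sequence, so that reads may be shared among them and with other Gbp genes. The ratio of Gbp5 to Gbp2 in TPM was 0.223 to 0.316 in sham and 0.289 to 0.318 in MI and overlapped.

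Other genes that interferon gamma induces were counted from a list of 20, of which 18 were tested: 5 were called higher and 11 lower, with a median of -0.71. Tgtp1 and Iigp1, GTPases that attack the vacuoles of intracellular parasites, fell by 2.14 and 2.11, from 68.2 ± 9.35 CPM in sham to 15.4 ± 0.378 CPM in MI for Tgtp1 and from 174 ± 4.82 CPM in sham to 40.4 ± 7.87 CPM in MI for Iigp1 (SD, n = 3 each); Tgtp1 has a close copy, Tgtp2. Nlrc5, an activator of MHC class I genes, rose by 1.96 and Serpina3g by 2.02. The sham level of Serpina3g rests on 9, 8 and 7 counts. Without MI replicate 3, 3 of this list were called higher in place of 5. Other type I targets were counted from a list of 59, of which 55 were tested: 35 were called higher and 8 lower, with a median of 0.59. Slfn4 and Slfn2, Schlafen genes of myeloid cells, rose by 7.03 and 3.15. The sham level of Slfn4 rests on 12, 8 and 15 counts. Trim21, an intracellular antibody receptor, fell by 1.46 and Trim34a by 1.43. When scaled to total counts, 16 type I targets were lower in place of 8, and 2 of the gamma list were higher in place of 5. Of 6 further Irf and Irf-binding genes, 4 were higher and 2 lower. Irf8, a factor of monocytes and dendritic cells, rose by 1.76 and Irf2bp2 by 1.39. Irf2bp1 fell by 0.79.

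**Figure D4:**
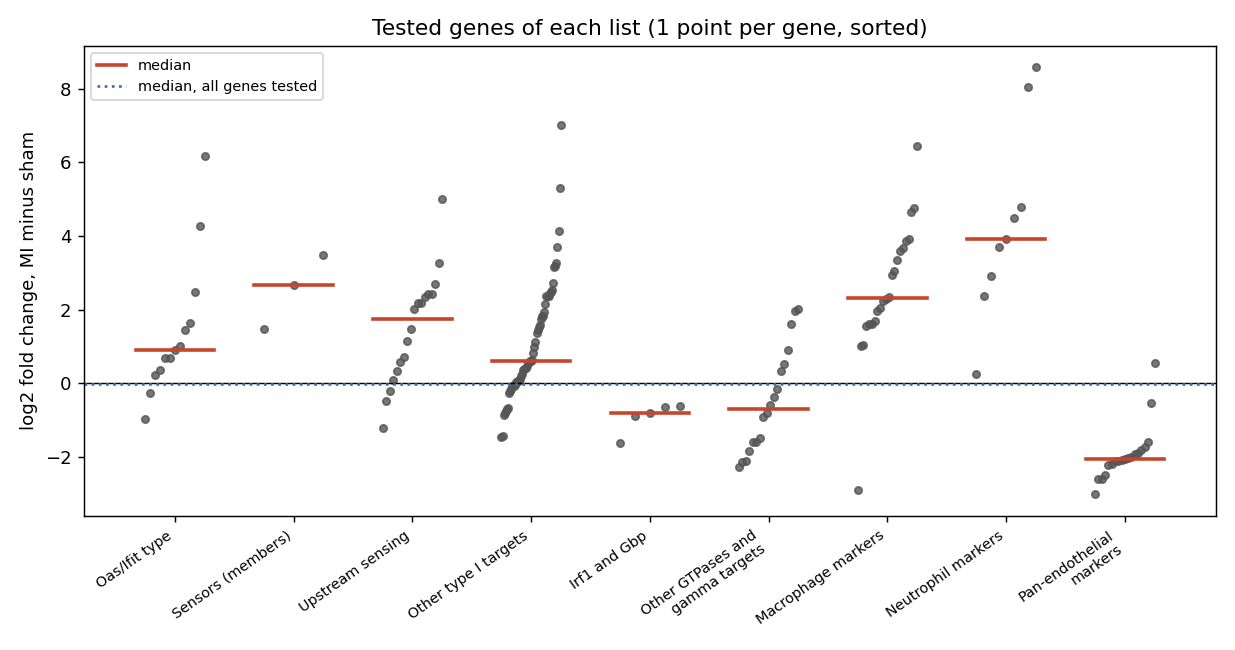
Log2 fold change (MI minus sham, y axis) of the tested genes of each list, 1 point per gene sorted by value, with a bar for the list's median. Medians are 0.89 for the Oas and Ifit type and 0.59 for other type I targets against -0.81 for Irf1 with the Gbp genes and -0.71 for other gamma targets, beside macrophage (2.32), neutrophil and pan-endothelial (-2.05) marker lists.

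The other effectors were mixed, with 4 of 8 higher, 2 lower and 2 not called. Samhd1, which depletes the nucleotides viruses need for DNA synthesis, had 124, 120.4 and 106 CPM in sham and 354, 340.0 and 341 CPM in MI. Parp14, an ADP-ribosyltransferase gene, had 191, 189 and 168 CPM in sham and 353, 260.1 and 290.2 CPM in MI. Trim30a had 88.5, 99.6 and 102 CPM in sham and 189, 135 and 142 CPM in MI. MI was above sham throughout, with rises of 1.56 (SE 0.09) for Samhd1, 0.72 (SE 0.11) for Parp14 and 0.68 (SE 0.13) for Trim30a (adjusted p = 9.15e-09, 0.000101 and 0.000432). Xaf1, a gene that promotes cell death, had 60.3, 61.3 and 64 CPM in sham and 38.1, 45.2 and 44.2 CPM in MI, all MI libraries being lower. It fell by 0.54 (SE 0.10), adjusted p = 0.000501.

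Bst2, or tetherin, which holds budding virus at the cell surface and also marks plasmacytoid dendritic cells, had 169.6, 173 and 162 CPM in sham and 174, 244 and 222 CPM in MI. MI replicate 1 was just above sham and the other MI libraries clearly above. The log2 fold change was 0.34 (SE 0.12) and adjusted p = 0.0186; it turned to -0.0088 when scaled to total counts, and the call was not made without sham replicate 1 (adjusted p = 0.0554), sham replicate 3 (0.0701), MI replicate 2 (0.0576) or MI replicate 3 (0.0564). Ifi35 had 61.8, 59 and 54.1 CPM in sham and 53.4, 68.6 and 58.5 CPM in MI, overlapping groups and a log2 fold change of 0.04 (SE 0.12) that was not called and was -0.31 when scaled to total counts, -0.0020 without sham replicate 3 and -0.064 without MI replicate 2.

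The membrane proteins that block virus entry had the highest levels of all members. Ifitm3 had 1711, 1689.7 and 1644 TPM in sham and 1396, 1769 and 1628 TPM in MI and Ifitm2 1312, 1146 and 1207 TPM in sham and 795, 947 and 868 TPM in MI. By mean TPM these 2 genes held places 1 and 2 of the 39 members in both groups. In CPM, Ifitm3 had 542, 534 and 523 CPM in sham and 463, 663 and 582 CPM in MI. The groups overlapped, with a log2 fold change of 0.10 (SE 0.11), adjusted p = 0.456. That value was -0.26 when scaled to total counts and -0.030 without MI replicate 2, whereas without MI replicate 1 it was 0.25 with adjusted p = 0.000188. Ifitm2 had 406, 353 and 372 CPM in sham and 262, 351 and 307 CPM in MI, with groups that barely stayed apart. It fell by 0.30 (SE 0.11), adjusted p = 0.0243, which was not under 0.05 without sham replicate 1 (0.128), sham replicate 3 (0.0653) or MI replicate 3 (0.0530). The ratio of Ifitm3 to Ifitm2 in TPM ranged from 1.30 to 1.47 over sham libraries and from 1.76 to 1.87 over MI libraries. The pair is close in sequence and lies within 55.9 kb of chromosome 7, so that reads may be shared between them.

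Ratios within a library do not depend on how the library is scaled, and 9 pairs were compared. In 7 of the 9, all MI libraries lay outside the sham range, with an exact two-sided permutation p of 0.1, the smallest that 3 against 3 libraries allow, and 0.129 after adjustment over the 9 pairs. The mean log2 differences of these ratios were 5.96 for Oas3 to Oas2, 3.19 for Irf7 to Irf1, 2.59 for Oasl1 to Oasl2, 2.50 for Irf7 to Irf3, 1.21 for Ifngr2 to Ifngr1, 0.41 for Ifitm3 to Ifitm2 and 0.12 for Irf9 to Stat2. Ifnar2 to Ifnar1 differed by -0.01 (exact permutation p = 1) and Gbp5 to Gbp2 by 0.15 (exact permutation p = 0.4, adjusted 0.45), and both overlapped. This design cannot reach 0.05 for a single ratio. Separation of the groups was common here, since CPM did not overlap in 76.1% of all genes tested. The share of other gene pairs with separated ratios is not given here.

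**Figure D5:**
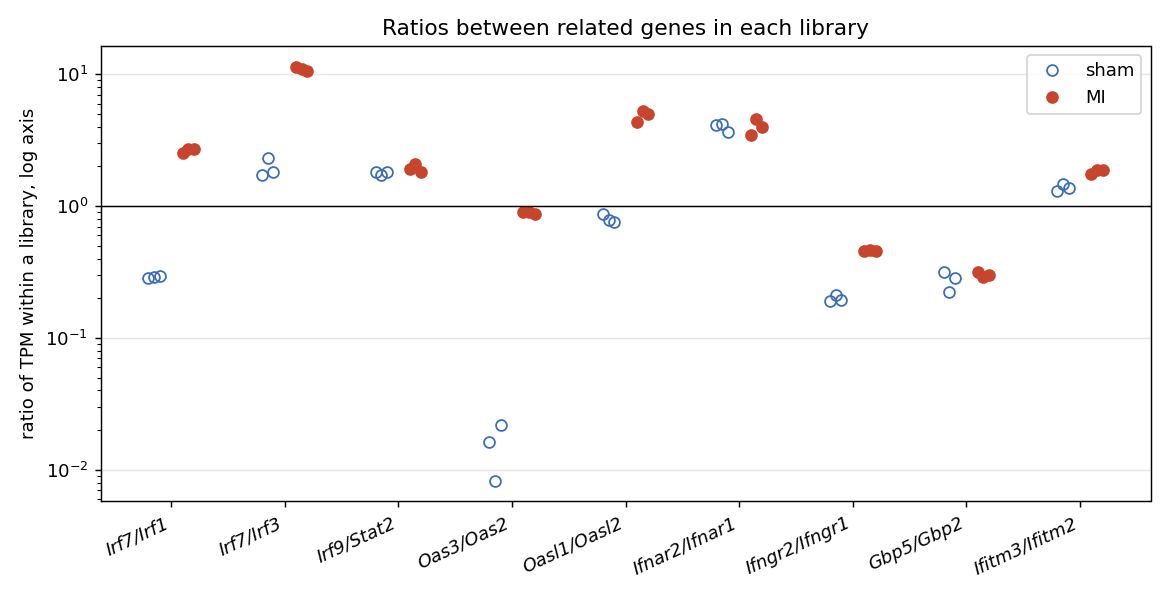
Ratio of the TPM of 2 related members within each library (log axis), with open circles for sham and filled circles for MI, and a line at 1. Irf7 to Irf1 and Oasl1 to Oasl2 cross from below 1 in sham to above 1 in MI, Oas3 to Oas2 rises from about 0.01 to near 0.9, and Ifnar2 to Ifnar1 and Gbp5 to Gbp2 overlap.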

How the data were processed

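RNA of 6 libraries (3 sham, 3 MI, day 3) was sequenced by BGI protocols, per the labels. The deposited table gives, for each library, estimated counts per gene with decimals, FPKM and TPM, all made by the authors. The submitters' processing notes name GRCm38.p6 and Agilent Feature Extraction 9.1. Which aligner and counter were run is not given in the sources used here. Further columns of scaled count signal, made by the authors and deposited per library and as group averages, were not used. The authors' estimated counts were rounded to whole numbers. Library totals were between 3206732 and 21689333 counts.

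Groups and replicate numbers came from the sample titles. Counts of all genes were filtered with filterByExpr, scaled by TMM and tested with edgeR 4.0.16 (glmQLFit, glmQLFTest, group only). Benjamini-Hochberg adjustment was over the 13370 genes tested, with a threshold of 0.05. The fit was also run on simulated counts. There, few genes were changed, in equal numbers up and down, so that the simulation does not test the scaling used here. The standard error is the log2 fold change over the square root of F. CPM are on TMM-scaled library sizes. Levels between genes and ratios used the authors' deposited TPM, and implied gene lengths used the authors' deposited counts and FPKM. Promoters came from RefSeq (GRCm38.p6), and coordinates from that build; 17576 genes matched RefSeq by identifier. Proteins were not used here. Alternatives were DESeq2 1.42.0, limma-voom (limma 3.58.1), RLE size factors, total-count scaling, no filter, the stricter filter of at least 1 CPM in every library of a group with 100 counts over all, a replicate block, leaving out each library, thinning MI to the sham depth, and limma on log2(TPM + 1) for genes with at least 1 TPM in 3 libraries. All members are named; other pathway genes are the Janus kinases, Socs1, Socs3, ligands with counts, and up to 2 genes per list and direction with the smallest p; some genes under this rule are not reported here. The members and lists were chosen with earlier results of these data known.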

Additional observations from a re-analysis of the deposited data

How the results depend on the processing

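Of the 39 tested members, 28 kept their direction and their side of the threshold under all 15 alternatives. The like share over all genes tested is not given here, so this count does not set the members apart. The counts of called members moved between 19 and 24 higher and between 10 and 16 lower. Scaling to total counts changed most: 5 transcription factors were lower (3 in the TMM fit), 4 other effectors were lower (2), 4 kinase, STAT and feedback genes were lower (1), 16 other type I targets were lower (8), and 2 other gamma targets were higher (5). It turned the log2 fold change of Oas2 to -0.13, of Irf2 to -0.24, of Bst2 to -0.0088, of Ifi35 to -0.31 and of Ifitm3 to -0.26. On the log2(TPM + 1) scale with limma, 3 other gamma targets were higher, and Irf2 was at -0.059, Ifi35 at -0.12 and Ifitm3 at -0.080.

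In the Oas and Ifit type, 1 gene was lower in place of 2 with DESeq2, RLE size factors, no filter and the replicate block, since Cmpk2 was not called; 1 other effector was lower without the filter. Leaving out single libraries gave 1 to 2 lower genes of the Oas and Ifit type, 1 to 2 lower other effectors, 1 to 2 lower kinase, STAT and feedback genes and 3 to 4 higher other gamma targets (5 with all libraries). The log2 fold change of Ifi35 was -0.00092 with the stricter filter and -0.00055 with MI thinned, and between -0.064 (without MI replicate 2) and 0.15 (without MI replicate 1) when 1 library was left out. That of Ifitm3 was between -0.030 and 0.25 without the same libraries. The log2 ratio Ifnar2/Ifnar1 MI minus sham was 0.0037 with a pseudocount of 1 TPM and between -0.11 (without MI replicate 2) and 0.091 (without MI replicate 1). The cause of these shifts was not tested.

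The labels do not say whether the replicate numbers pair the libraries. Deviations of same-numbered libraries correlated at -0.05, -0.02 and 0.02, and 1 of 3 numbers was its own best match. With so few libraries per group, these values cannot exclude a pairing. With the replicate block, 9635 genes were called against 9800, and Cmpk2 was the member whose call changed (adjusted p = 0.0603). Most ligands had too few counts in both groups to be tested.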

Other observations

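Among the MI libraries, the place of MI replicate 1 went with the implied length of a member's transcript. MI replicate 1 was the highest of the 3 MI libraries in 17 members, whose median implied length was 3.70 kb, the lowest in 17, whose median was 1.67 kb, and between the others in 5. The longer group held Oas3, Ifih1, Gbp2, Gbp3, Gbp5, Gbp7, Rsad2 and Parp14, and the shorter group Isg15, Oas1a, Oasl1, Irf1, Irf7, Bst2, Ifitm2 and Ifitm3. The log2 difference of MI replicate 1 from the mean of MI replicates 2 and 3 had a Spearman correlation across genes of 0.87 with implied length over the 39 members and of 0.59 over 12460 tested genes; genes are not independent replicates, and all points share the same 3 libraries. The log2 fold change between MI and sham had a correlation with length of 0.03 over the members and of -0.01 over those 12460 genes.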
